A study of Mus musculus with 258 samples.

Results

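The loops described here are chromatin contacts at 6 windows of the mouse genome that hold genes of B cell activation and of the interleukin 4 (IL-4) response: Il4ra with Il21r, Cd40, Cd86, Cd83, Fcer2a and Cd69. A loop was a member when the start of its left or right anchor lay inside a window, whatever its strength. There were 36 members among the 6181 loops of the deposited lists, 14 of 1866 in resting cells and 22 of 4315 in activated cells. The cells were wild-type splenic B cells of C57BL6/J mice aged 6 to 8 weeks, purified by negative selection. Resting cells were taken untreated (0 h), and activated cells were cultured for 72 h with an anti-CD180 (RP105) antibody at 0.5 µg/mL, LPS at 50 µg/mL and IL-4 at 2.5 ng/mL. In situ Hi-C, which counts ligations between crosslinked positions, was made from 8 resting and 26 activated libraries, and there is 1 pooled loop list per state. No replicate lists were used, so no test between the states was possible. Intervals of counts, shares and medians treat loops as independent draws, though several members share an anchor. Intervals of single loop pairs cover the counting error of their contacts only. None of them covers variation between animals.

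IL-4 binds the receptor chain encoded by Il4ra, and the Janus kinases on the receptor then activate the transcription factor STAT6. In B cells this pathway is known to raise the low-affinity IgE receptor CD23 (Fcer2a), the costimulatory ligand CD86 and the IL-4 receptor itself. LPS acts through Toll-like receptor 4 and the antibody through CD180, and CD69, CD83 and CD86 are known surface markers of B cells activated in this way. Chromatin loops commonly form where cohesin, extruding DNA, is stopped at sites bound by CTCF, and some join promoters with enhancers. Which element lies at an anchor was not tested here. Positions are in the mm9 build, the pixels are 5 kb wide, and a loop is given from the first base of its left anchor to the last base of its right anchor. Its length is the distance between the anchors, and its strength is the observed contact count over the count expected from the surrounding donut of pixels. The windows come with their gene names. The exact place of each gene within its window was not determined, because no mm9 annotation was used.

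More loops were called at the 6 windows in activated than in resting cells, 22 against 14, a ratio of 1.57 (exact conditional binomial 95% interval 0.769 to 3.32). That interval includes 1, and it also includes the ratio over all loops of the lists, 2.31. The counts were 2 resting and 1 activated at Il4ra and Il21r, 2 and 3 at Cd40, 2 and 5 at Cd86, 2 and 3 at Cd83, 1 and 3 at Fcer2a and 5 and 7 at Cd69. Genome tiles of the same lengths held on average 0.644 to 0.792 resting and 1.61 to 1.95 activated loops, with medians of 0 and 1. The windows were chosen around named genes and the tiles were not. The Il4ra and Il21r window held fewer activated than resting loops in the lists as deposited. With the counts of the called activated loops scaled to the resting depth, as described below, the Cd40 window did too, with 2 resting and 1 activated loops. That step removes activated loops only, so the activated count could only fall. The excess lay in the longer loops, as it did over all loops of the lists. Members of 100 kb or longer numbered 5 in resting and 15 in activated cells (ratio 3.00, interval 1.04 to 10.6), beside 892 and 2915 over all loops (ratio 3.27). Members of up to 50 kb numbered 7 in resting and 4 in activated cells, beside 554 and 557 over all loops.

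**Figure D1:**
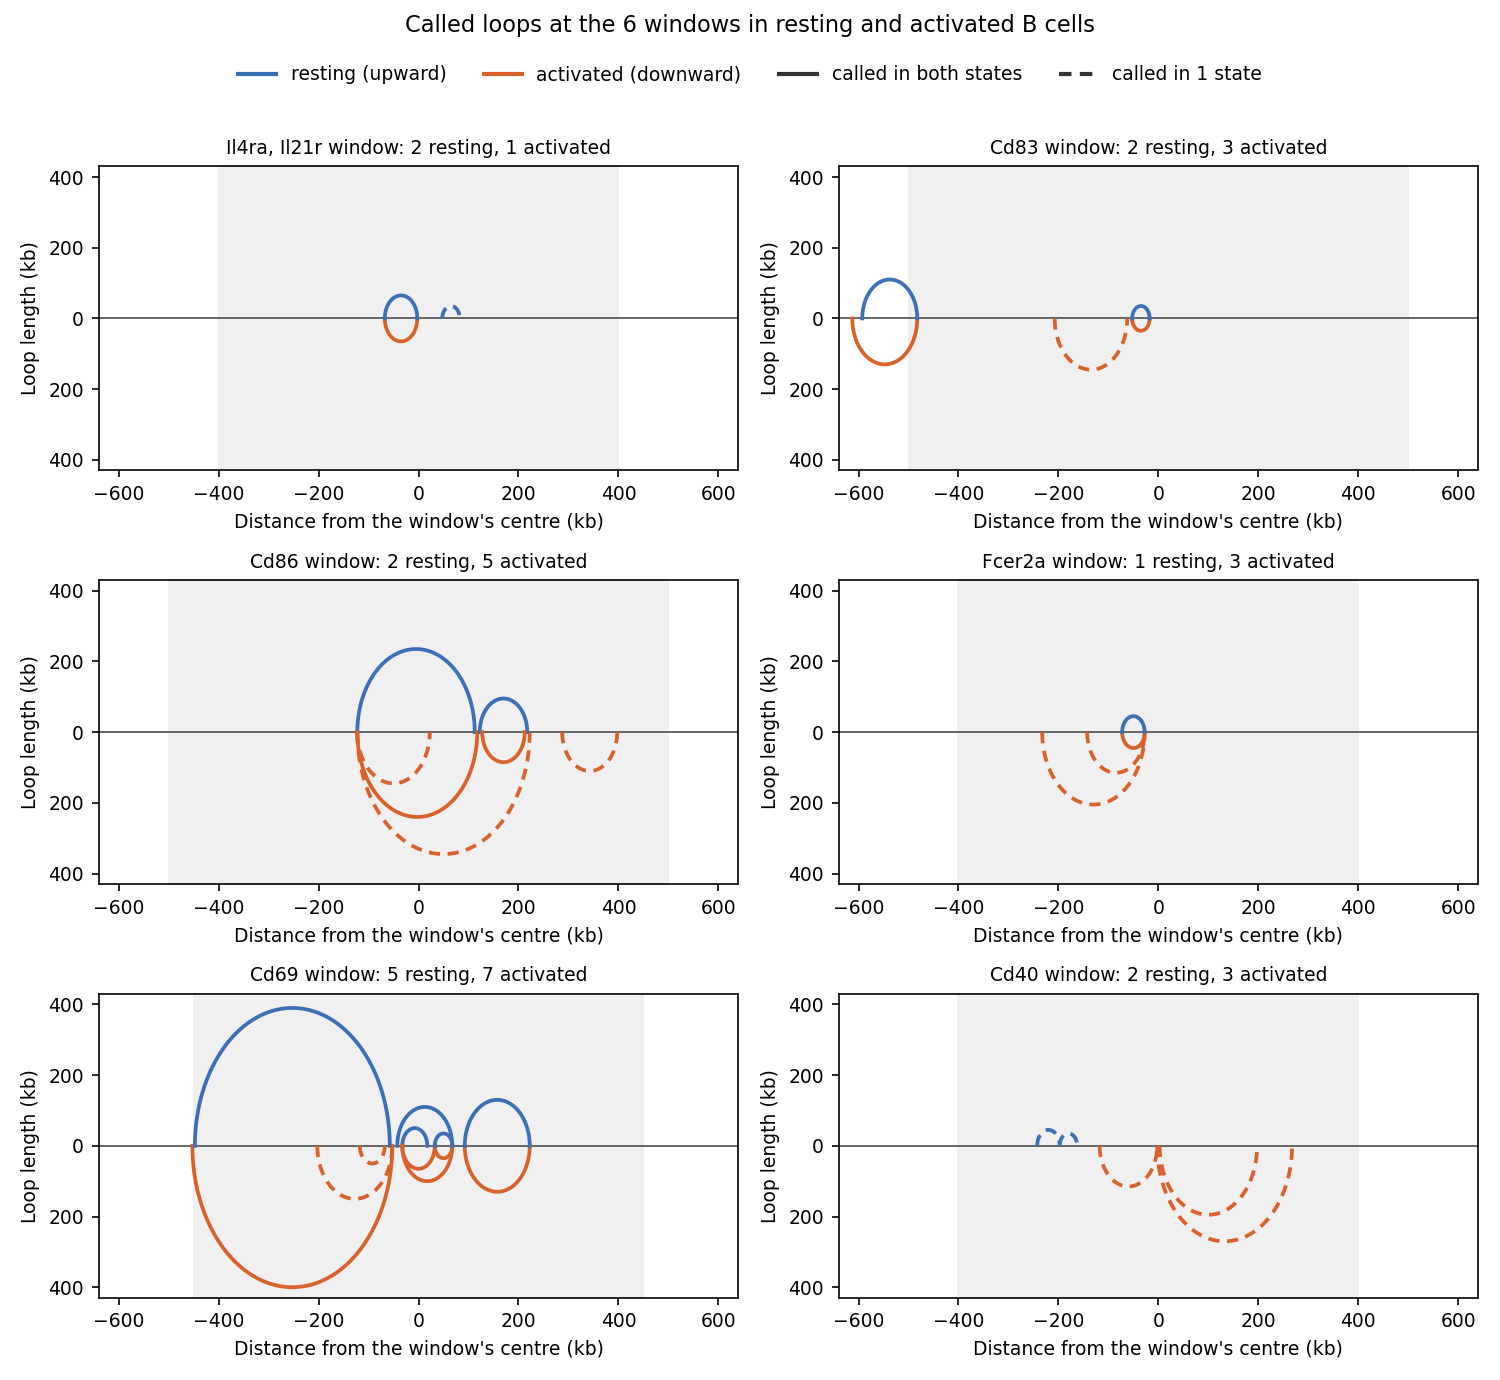
Arcs join the anchors of each called loop, upward for resting and downward for activated cells, with the distance from the window's centre (kb) on the horizontal axis and an arc height equal to the loop length (kb). The grey band is the window, solid arcs were called in both states and dashed arcs in 1. The Cd40 window has dashed arcs alone, and 5 of the 7 activated arcs at Cd69 are solid.

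With a tolerance for the position of the anchors, 11 of the 14 resting loops were still called after activation, a share whose interval includes that of all resting loops. Loops of the lists were taken as shared when their left anchors overlapped and their right anchors overlapped, after each anchor had been extended 10 kb outward in both directions. The shared resting members made up 78.6% (Wilson 95% interval 52.4 to 92.4), against 65.2% of all resting loops. Of the 22 activated members 11 were shared (50%, 30.7 to 69.3), against 28.3% of all activated loops. The activated interval lies above the share of all activated loops, but it treats loops as independent, and several members share an anchor. Both resting loops at Cd86 and at Cd83, the single one at Fcer2a and all 5 at Cd69 had an activated partner. The Cd69 window alone gave 5 of the 11 pairs, and without it the shares were 66.7% and 40% (35.4 to 87.9 and 19.8 to 64.3), intervals that hold the shares of all loops. With anchors not widened, 5 of the 14 resting members were shared (35.7%), beside 24.1% of all resting loops, and 5 of the 22 activated members (22.7%), beside 10.4%. All 3 resting-only members were short, at 35, 35 and 45 kb, and they lay at Cd40 and at Il4ra and Il21r. Of all 650 resting-only loops, 49.7% were up to 50 kb long. Resting members over 50 kb were shared in 7 of 7 cases, beside 75.1% of all resting loops of that length, and those up to 50 kb in 4 of 7, beside 41.7%. Activated members over 50 kb were shared in 8 of 18 cases (44.4%), beside 26.5% of all activated loops of that length, and those up to 50 kb in 3 of 4, beside 40.2%.

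Il4ra encodes the ligand-binding chain of the IL-4 receptor, and Il21r, its next protein-coding neighbour in the RefSeq order of GRCm38.p6, encodes the receptor of interleukin 21, a cytokine of helper T cells. A loop of 65 kb on chromosome 7 from 132630001 to 132700000 was called at the same pixel in both states. It had 93 observed contacts over 44.7 expected in resting cells (strength 2.08) and 207 over 87.1 in activated cells (strength 2.38). The observed count was 2.23 times and the expected count 1.95 times as large in the activated map. The log2 ratio of strengths was 0.19 with a counting SE of 0.18, so 0 lies within 1.96 SE. What differed more was the size of the enriched patch. The caller merged 8 pixels into this loop in resting cells and 35 in activated cells, and only 5 of the 4315 activated loops had 35 or more. In the authors' deposited table the highest of its q-values against the local backgrounds was 0.0090 in resting and 2.93e-09 in activated cells. Merged pixels were more numerous in activated cells in 79.1% of all one-to-one pairs of shared loops, with medians of 3 and 8. The activated map was taken as deeper by an estimated 1.55 times, the median ratio of expected counts over all those pairs. Single ratios ran from 0.403 to 4.28, and library totals were not used. The part of depth in the differences between the states was not tested. The second resting loop, from 132745001 to 132785000 (35 kb), had 66 contacts over 36.9 expected, a strength of 1.79 that is close to the lowest of its list (1.75). It was not called in activated cells, and the nearest activated loop was the 65 kb one, whose left end lay 115 kb away.

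Cd40 encodes the receptor through which helper T cells stimulate B cells, a member of the tumour necrosis factor receptor family, and lies between Ncoa5 and Cdh22 in the RefSeq order. Of the 6 windows it was the only one with no shared loop, and none of its 7 merged anchors was used in both states. The resting loops on chromosome 2 were consecutive and short. One ran from 164655001 to 164705000 (45 kb) with 87 contacts over 42.3 expected, a strength of 2.06. Its right anchor was the left anchor of the other, which ran to 164740000 (35 kb) with 89 contacts over 44.1 expected, a strength of 2.02. The activated loops were 115, 195 and 270 kb long and met at 1 anchor between 164895001 and 164905000. The 115 kb loop came from the left, starting at 164780001, and stood at 62 contacts over 32.1 expected (strength 1.93). To the right, the 195 kb loop ended at 165100000 with 55 contacts over 24.0 expected (strength 2.29), and the 270 kb loop ended at 165170000 with 51 over 19.1 (strength 2.67). From each of the 3, the nearest resting loop differed by at least 160 kb at 1 of its ends. The 115 kb loop had the lowest strength of all activated members. At resting depth the 270 kb loop alone was kept, which left 1 activated against 2 resting loops here.

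Cd86 encodes the ligand that engages CD28 and CTLA-4 on T cells, and its neighbours in the RefSeq order are Casr and Ildr1. In resting cells the window held 2 consecutive loops on chromosome 16. The left one, from 36475001 to 36715000 (235 kb), had 41 contacts over 10.0 expected, and its strength of 4.08 was the highest of all resting members. The right one, from 36720001 to 36820000 (95 kb), had 48 contacts over 14.1 expected (strength 3.40). Both had activated partners within 5 kb at each end, at strengths of 3.40 (54 contacts over 15.9) and 3.10 (83 over 26.8). Their log2 ratios were -0.26 with a counting SE of 0.30 and -0.13 with an SE of 0.26, so neither stood outside its counting error.

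The activated cells had 3 further loops at Cd86. The longest, from 36475001 to 36825000 (345 kb), ran from the left end of the first of these loops to within 5 kb of the right end of the second resting loop, and thus spanned the stretch of both. It rested on 33 contacts over 9.08 expected (strength 3.63), and it was the only activated-only member with both anchors already in use in resting cells. Another, of 145 kb, left the same anchor and ended at 36625000, with 48 contacts over 16.7 expected (strength 2.87). The left anchor at 36475001 thus had 3 activated loops and 1 resting loop. A separate loop of 110 kb from 36885001 to 37000000 had 75 contacts over 30.3 expected (strength 2.47), and neither of its anchors was in the resting list.

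Cd83 encodes a surface protein of the immunoglobulin family that is known to stabilise MHC class II and CD86, and it lies between Rnf182 and Jarid2 in the RefSeq order. The shortest loop of this window, on chromosome 13 from 43845001 to 43885000 (35 kb), lay at the same pixel in both states and had the most contacts of any member in each, 128 in resting and 215 in activated cells. Expected counts were 59.9 and 72.1, so its strength was 2.14 in resting and 2.98 in activated cells, 1.40 times as high (counting interval 1.12 to 1.74). With a log2 ratio of 0.48 and a counting SE of 0.16 it was the one pair of the 11 that stood outside 1.96 counting errors. The size of this difference went with the background: the log2 ratio was 0.41 against the vertical, 0.20 against the horizontal and 0.06 against the lower left background.

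An activated-only loop of 145 kb, from 43690001 to 43840000, ended within 10 kb of the left anchor of that short loop. It had 65 contacts over 22.8 expected (strength 2.86), and its left anchor had no resting loop. The remaining pair of the window reached into it with 1 end only, 15 kb inside the limit. It ran from 43305001 to 43420000 in resting cells (70 contacts over 33.7, strength 2.08) and from 43285001 to 43420000 in activated cells (85 over 34.1, strength 2.49). The left ends lie 20 kb apart, the largest distance at which loops counted as shared, and the resting loop's highest q-value in the authors' deposited table was 0.0932.

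Fcer2a encodes CD23, the low-affinity IgE receptor, a classical product of IL-4 stimulation, with Trappc5 and Clec4g as neighbours in the RefSeq order. Every loop of the window, on chromosome 8, ended at the same right anchor, 3670001 to 3675000. Resting cells had 1 loop to it, from 3625001 (45 kb), with 92 contacts over 36.6 expected (strength 2.51). Activated cells had the same pixel with 188 contacts over 72.5 expected (strength 2.59), a log2 ratio of 0.05 with a counting SE of 0.18. Activated cells had 2 more loops to that anchor that enclosed the first. One came from 3555001 (115 kb), with 63 contacts over 26.8 expected (strength 2.35), and one from 3465001 (205 kb), with 62 over 21.8 (strength 2.85). Neither of their left anchors had a resting loop.

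Cd69 encodes a C-type lectin that appears early on activated lymphocytes and holds them in lymphoid tissue, and it lies among related lectin genes, between Clec2d and Clec2m in the RefSeq order. This window had the most members in both states, 5 and 7, and each resting loop had an activated partner. The longest member pair lay on chromosome 6, from 128800001 to 129195000 in resting cells (390 kb) and from 128795001 to 129200000 in activated cells (400 kb). It had 63 contacts over 21.4 expected (strength 2.94) in resting cells and 68 over 20.9 (strength 3.26) in activated cells. The resting loop began at the window's first base, and its activated partner 1 pixel before it.

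To the right of it, 3 pairs covered the stretch that ends at 129320000, 2 short ones within a longer one. It began at 129205001 in resting and at 129215001 in activated cells. The enclosing pair was 110 kb long in resting cells (47 contacts over 15.3, strength 3.07) and 100 kb long in activated cells (73 over 19.7, strength 3.71). Of the inner pairs, the left one was 50 kb long in resting (83 over 30.1, strength 2.75) and 65 kb long in activated cells (110 over 49.3, strength 2.23). The right one, from 129280001, was 35 kb long in both (64 over 26.1, strength 2.46, and 106 over 44.6, strength 2.38). A further pair at 1 pixel, from 129340001 to 129475000 (130 kb), had 39 contacts over 14.2 expected (strength 2.75) in resting and 64 over 18.7 (strength 3.42) in activated cells. The log2 ratios of the 5 pairs ran from -0.30 to 0.31 with counting SEs of 0.21 to 0.29, and all included 0 within 1.96 SE.

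The 2 activated-only loops of the Cd69 window both ended within 10 kb of the right end of the 390 kb resting loop. One, from 129045001 to 129200000 (150 kb), had 55 contacts over 12.8 expected, and its strength of 4.30 was the highest of all 36 members. Its strength was 4.82 against the horizontal and 2.25 against the vertical background. The other, from 129130001 to 129185000 (50 kb), had 142 contacts over 47.0 expected (strength 3.02). With anchors up to 10 kb apart merged, a chain of neighbouring positions formed 1 merged anchor from 129180001 to 129220000. It had 5 activated and 3 resting loops, the most of any member anchor in either state.

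**Figure D2:**
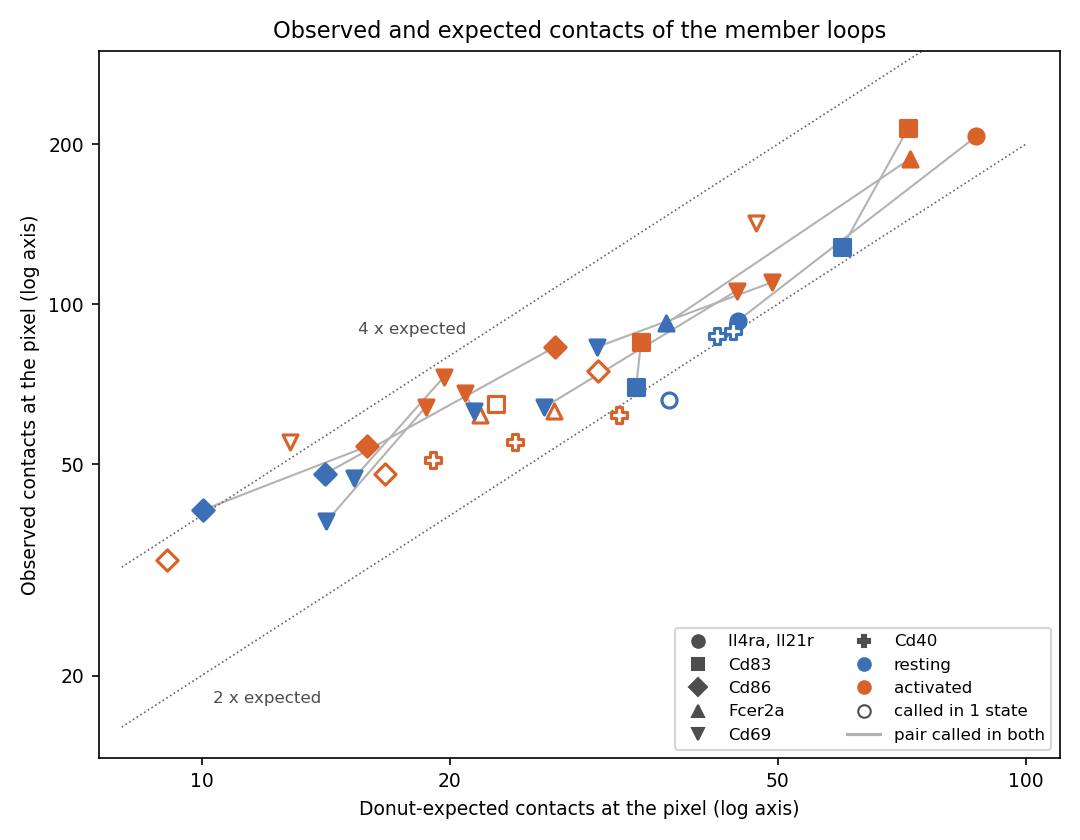
Each point is a member loop, with the donut-expected count on the horizontal and the observed count on the vertical axis, both logarithmic. Marker shape gives the window and colour the state, open markers are loops called in 1 state, grey lines join pairs, and the dotted lines mark 2 and 4 times the expected count. In all 11 pairs the activated point lies higher, and 10 of the 11 also have a larger expected count.

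Across the 11 shared members the observed count was larger in activated cells in 11 of 11 pairs, by 1.08 to 2.23 times (median 1.64), and the expected count by 0.976 to 1.98 times (median 1.58). Over all 1212 one-to-one pairs these medians were 1.60 and 1.55, and 94.3% had more observed contacts in activated cells. The median of 1.55 was used as the estimate of the relative depth of the maps. Strength was higher in activated cells in 7 of 11 pairs, against 56.7% of all pairs, and lower in 4. Those 4 were both Cd86 pairs and the 50 and 35 kb Cd69 loops. The median log2 ratio was 0.15 (binomial order-statistic interval -0.26 to 0.31), beside 0.05 over all pairs. The Cd83 loop of 35 kb alone was higher by more than 1.96 counting errors, which 8.25% of all pairs were. None of the 11 was lower by that much, as 4.46% of all pairs were. The number of merged pixels was higher in activated cells in 10 of 11 pairs, beside 79.1% of all pairs, and the median went from 3 to 8 both in the members and over all pairs.

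**Figure D3:**
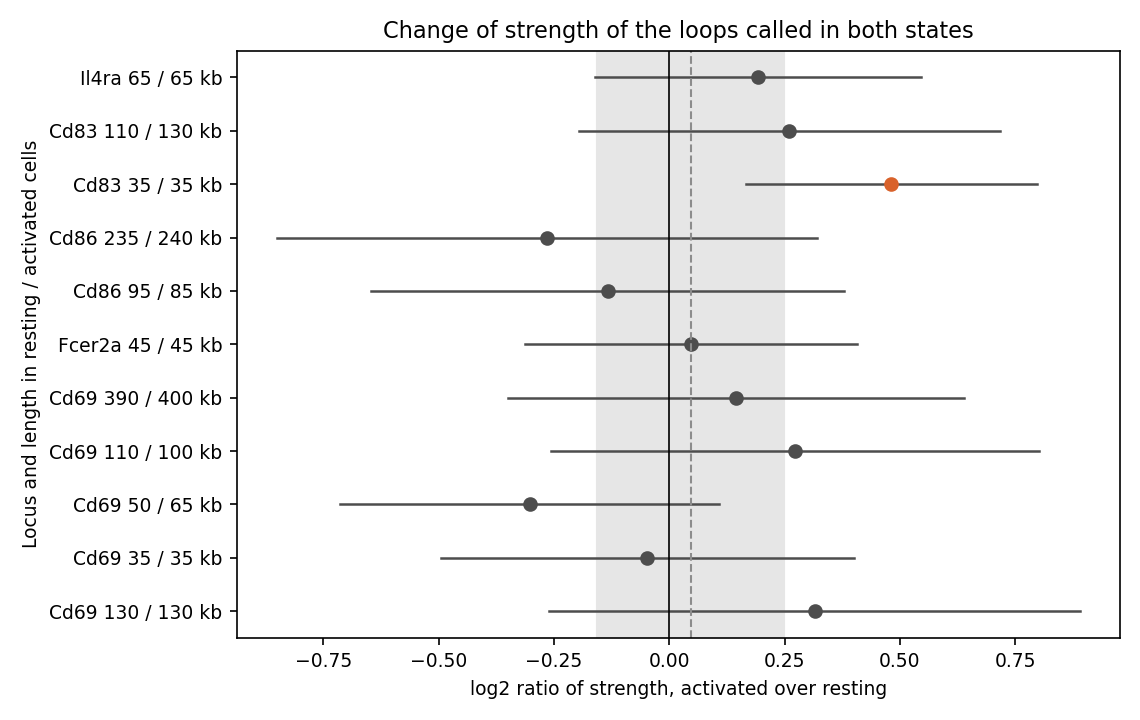
Points give the log2 ratio of strength, activated over resting, of the 11 loops called in both states, and bars span 1.96 counting SEs on either side. The grey band holds the middle 50% of all 1212 pairs and the dashed line their median of 0.05. The 35 kb Cd83 loop, in orange, is the one whose bar does not reach 0.

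The 11 activated-only members were 50 to 345 kb long (median 145 kb), with 33 to 142 contacts and a median strength of 2.85. Over all activated-only loops the median length was 155 kb and the median strength 2.80. Of the 11, 7 had at least 1 anchor that was in use in resting cells, or 63.6%, beside 32.3% of all activated-only loops. These 7 lay at Cd86, Cd83, Fcer2a and Cd69, and several shared an anchor with each other, so they are not independent. The 4 with no such anchor were the 3 Cd40 loops and the 110 kb loop at Cd86. Every window held at least 1 resting loop, while genome tiles of the same lengths held a median of 0. The 32.3% is therefore not matched for resting anchors nearby, and their part in the difference was not tested. None of the 3 resting-only members had an anchor in the activated list, beside 62.2% of all resting-only loops with at least 1. Their strengths of 1.79 to 2.06 lay below the resting-only median of 2.27, over expected counts of 36.9 to 44.1.

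**Figure D4:**
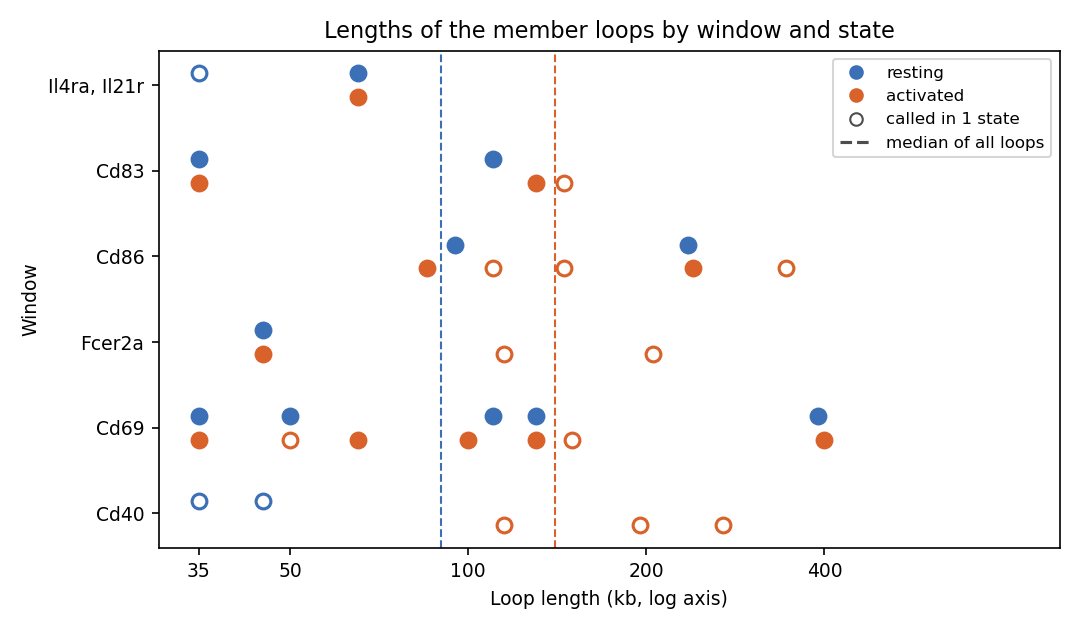
Each point is a member loop at its length (kb, log axis) in the row of its window, in blue for resting and orange for activated cells, and open where it was called in 1 state. Dashed lines mark the medians of all loops, 90 kb in resting and 140 kb in activated cells. At Cd40 all resting points lie at or below 45 kb and all activated points at or above 115 kb.

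Over all members the median length was 57.5 kb in resting cells (order-statistic interval 35 to 130). In activated cells it was 122.5 kb (65 to 195), and over all loops the medians were 90 and 140 kb. The median strength was 2.48 in resting cells (2.06 to 3.07) and 2.85 in activated cells (2.38 to 3.26), beside 2.63 and 2.84. Both intervals overlap between the states. The strongest members were those of Cd86 in resting cells and of Cd69 and Cd86 in activated cells, and the weakest were at Il4ra and Il21r in resting and at Cd40 in activated cells. Merged anchors with at least 2 loops made up 6 of 22 in resting members (27.3%, beside 15.5% of all resting anchors) and 10 of 29 in activated members (34.5%, beside 24.8%). The Cd69 window gave 4 of the 6 resting ones, and without it the shares were 12.5% in resting members, below that of all resting anchors, and 28.6% in activated members. With observed and expected counts of the activated map divided by 1.55, 19 of the 22 activated members still met the limits of the resting list, beside 90.8% of all activated loops. The 3 that did not were the 115 kb loop at Fcer2a and the 115 and 195 kb loops at Cd40. At that depth the Cd40 window kept 1 of its 3 activated loops, and the Fcer2a window 2 of its 3. The part of depth in the other activated-only calls was not tested.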

How the data were processed

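The 2 deposited loop lists, 1 pooled per state, were compared. Per the submitters' processing notes, BWA and Juicer were used with the mm9 build. The sources used here name no versions, loop caller or thresholds. A time is missing from the name of the activated list, which was assigned to the 72 h wild-type state from the deposited description of the maps. Per the file headers, each loop has an observed contact count (raw, whole), a modelled expected count for each of 4 local backgrounds (lower left, donut, horizontal, vertical), and a q-value against each. The resting list went down to a donut ratio of 1.75 and up to a q-value of 0.0942, the activated list to 1.76 and 0.0998. A loop not listed was not called, which does not show it to be absent. Library totals were not used here. The depth ratio of 1.55 is the median ratio of donut-expected counts over 1212 one-to-one pairs, matched by smallest summed distance.

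Members came from the window limits by x1 or y1. Shares have Wilson intervals, ratios of counts exact conditional binomial intervals, medians order-statistic intervals, all at 95%. The counting SE of a log2 ratio takes expected counts as fixed. For the comparison at resting depth, activated observed and expected counts were divided by 1.55, observed counts rounded, and loops kept that met the lowest ratio and highest Poisson p-value of the resting list for every background. Anchors of both lists up to 10 kb apart were merged. Matching was tested on simulated data with known partners. Those partners were shifted by at most 10 kb at each end, so the matching of pairs further apart was not tested. Every member loop was named, since each window held at most 12. The members and lists were chosen with earlier results of these data known. Neighbouring genes were read by order from the RefSeq table of GRCm38.p6, where 7 of 7 genes matched, and no coordinates were taken from it. Further genes of the IL-4 and CD40 pathways were not analysed here, because no mm9 annotation was used, and no anchor sequence is shown because no mm9 genome was used. Not analysed here were the 59 other Hi-C libraries and the 165 of other assays. Python 3.11.15, pandas 2.3.3 and SciPy 1.17.1 were used.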

Additional observations from a re-analysis of the deposited data

How the results depend on the processing

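Of 87 alternatives to the ratio, shares, medians and log2 ratio of the members together, 82 stayed inside the interval of the main value and 5 left it. These intervals are wide, so staying inside is a weak criterion: that of the ratio ran from 0.769 to 3.32. For the counts of single windows, 19 of 84 alternatives moved beyond the fold limit set for them. With anchors not widened, 35.7% of resting and 22.7% of activated members were shared, since only the 5 pairs at the same pixel then match. Against the horizontal and the vertical background the median strength of activated members (2.85) was 2.23 and 2.28. Over all activated loops it likewise went from 2.84 to 2.34 and 2.37. The ratio of activated to resting members (1.57) ran from 1.42 without the Cd86 window to 1.75 without the Il4ra window. It was 1.39 with windows widened by 100 kb, 1.36 at resting depth and 3 for loops of 100 kb or longer. Leaving out 1 window at a time, a choice for shares, strengths, anchors and log2 ratios made after the data were seen, gave shares of resting members from 66.7% (without Cd69) to 91.7% (without Cd40). The share of resting member anchors with at least 2 loops (27.3%) ran from 12.5% (without Cd69) to 33.3%. The median log2 ratio of shared members then ran from 0.05 (without Cd83) to 0.19 (without Cd86), and it was 0.02 against the horizontal background. Single windows hold few loops: with all q-values at most 0.01, Cd40 had 1 loop in each state and Cd86 had 1 resting and 3 activated, and with windows widened by 100 kb Cd69 had 8 resting loops. No paired analysis was possible because each state has 1 pooled list. Low counts, 33 contacts at the fewest, limit the precision of single strengths.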
